A study of Saccharomyces cerevisiae with 12 samples.

Results

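The genes described here encode the budding yeast machinery that ends and removes non-coding transcripts: the Nrd1-Nab3-Sen1 termination complex, its partner factor Pcf11, the TRAMP complex and the nuclear exosome subunit Rrp6. The 9 genes were chosen by name from 6465 Saccharomyces cerevisiae gene intervals, as NRD1 (YNL251C), NAB3 (YPL190C), SEN1 (YLR430W), PCF11 (YDR228C), PAP2 (YOL115W), AIR1 (YIL079C), AIR2 (YDL175C), MTR4 (YJL050W) and RRP6 (YOR001W). The intervals, in R64 coordinates, run from the start codon to 250 bases past the stop codon. They are chrXIV:172338-174315 for NRD1, chrXVI:185067-187725 for NAB3, chrIV:921676-923806 for PCF11, chrIX:210673-212005 for AIR1 and chrIV:144234-145518 for AIR2 on the minus strand. On the plus strand they are chrXII:993434-1000379 for SEN1, chrXV:101475-103479 for PAP2, chrX:342522-345993 for MTR4 and chrXV:326832-329283 for RRP6. The group was proposed with earlier results of these data known, because NRD1 had the highest rise in new RNA after depletion in 1 of the strains. Values of NRD1 from libraries of that strain are therefore given as a description, with no test.

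SLAM-seq was used to ask how the loss of the BET proteins Bdf1 and Bdf2 changes the synthesis of RNA, and whether the extra-terminal (ET) domain of Bdf1 alone can take over. The 12 libraries formed 4 groups of 3, which the study's methods give as biological replicates. Both strains carried BDF1-3xV5-mAID::URA3 and BDF2-3xV5-mAID::KanMX, in which the proteins bear an auxin-inducible degron, and pGPD1-OsTIR1:HIS3, in which the GPD1 promoter drives the plant receptor that triggers their degradation. The strain RDY73, called the control strain, carried nothing further. The strain RDY388, called the ET strain, was derived from it and also carried pJR15:TRP1, integrated at TRP1, in which the GPM1 promoter drives the ET domain with the RPL25 nuclear localisation signal, 3xV5 and the BDF1 terminator. Cells in YPD medium received the auxin IAA in DMSO, or DMSO alone, for 25 min, and then 4-thiouracil (4tU) for 4 min. The DMSO groups thus carried the same degrons, and IAA treatment cannot be told apart from the loss of Bdf1 and Bdf2, since IAA on cells without degrons was not analysed here.

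New RNA takes up 4tU, which is read as T>C conversions after alkylation, and a T>C read is one with at least 2 such conversions. Libraries held 6279282 to 11395597 S. cerevisiae reads and 90321 to 330857 T>C reads. Spike-in cells of Schizosaccharomyces pombe gave 445036 to 722822 reads per library. The labelled share of all S. cerevisiae reads was 2.60% to 2.69% in the control strain with DMSO, 1.29% to 1.44% with IAA, 2.90% to 3.42% in the ET strain with DMSO and 1.64% to 1.83% with IAA. The share in S. pombe, whose cells were labelled apart, was 2.53% to 3.22%. These are bulk libraries, in which fewer cells and less RNA per cell cannot be told apart.

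Nrd1 and Nab3 bind short motifs in nascent RNA, and Sen1 is a helicase that releases RNA polymerase II. They end snoRNA genes and unstable non-coding transcripts near promoters, and they also stop transcription early within some protein-coding genes, the best known being NRD1 itself, which the complex holds down by this autoregulation. Pcf11 belongs to cleavage factor IA and acts in both this pathway and the ordinary 3′ end pathway. The RNAs that are released are tailed by TRAMP, which joins the poly(A) polymerase Pap2 (also named Trf4), a zinc-knuckle protein Air1 or Air2 and the helicase Mtr4, and are then trimmed or destroyed by the exosome with Rrp6.

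The windows around the start codons of 3 genes are shown because NRD1 rose where its partner NAB3 and the TRAMP gene MTR4 did not, and because the known early termination of NRD1 acts near its start. Each window runs 5′ to 3′ on the gene's strand, from 250 bases before the start codon to the 50th base of the coding sequence, read from RefSeq's R64 genome, the build of the files. Capitals mark GTAG and GTAA, known motifs of Nrd1, and TCTT, known for Nab3, on the strand shown. NRD1 lies at chrXIV:174266-174565 (minus strand), NAB3 at chrXVI:187676-187975 (minus strand) and MTR4 at chrX:342272-342571 (plus strand).
NRD1: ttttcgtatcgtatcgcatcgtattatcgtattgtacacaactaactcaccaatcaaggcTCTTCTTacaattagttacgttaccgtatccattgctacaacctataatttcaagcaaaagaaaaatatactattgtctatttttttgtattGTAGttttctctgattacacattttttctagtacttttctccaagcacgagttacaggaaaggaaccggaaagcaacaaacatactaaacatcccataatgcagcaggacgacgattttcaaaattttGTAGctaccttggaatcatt
NAB3: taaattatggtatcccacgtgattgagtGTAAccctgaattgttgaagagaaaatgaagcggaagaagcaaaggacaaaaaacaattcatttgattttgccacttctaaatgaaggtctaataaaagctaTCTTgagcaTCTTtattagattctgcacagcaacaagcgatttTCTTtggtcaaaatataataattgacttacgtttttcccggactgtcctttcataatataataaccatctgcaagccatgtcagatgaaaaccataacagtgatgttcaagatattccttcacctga
MTR4: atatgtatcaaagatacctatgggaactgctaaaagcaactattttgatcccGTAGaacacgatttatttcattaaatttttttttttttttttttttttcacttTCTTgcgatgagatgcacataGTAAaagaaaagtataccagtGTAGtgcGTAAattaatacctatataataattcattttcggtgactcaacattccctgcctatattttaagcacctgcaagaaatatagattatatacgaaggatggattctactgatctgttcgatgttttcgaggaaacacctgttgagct
The NRD1 window held GTAG 2 times, 1 of them in the coding bases, and TCTT 2 times, in an overlapping pair, but no GTAA. The NAB3 window held TCTT 3 times, GTAA 1 time and no GTAG. The MTR4 window held GTAG 2 times, GTAA 2 times and TCTT 1 time. Short motifs are common: of 5994 such windows of all genes, 54.6% held GTAG, 76.5% held GTAA and 85.3% held TCTT, and 20.5% held GTAG at least 2 times. TCTT occurred at least 2 times in 61.1%, and 65.0% held at least as many matches to the 3 motifs together as NRD1. On the opposite strand 54.6% held GTAG, 76.3% held GTAA and 92.9% held TCTT. A match describes the letters and says nothing of binding.

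NRD1 RNA was more abundant after depletion in both strains, while reads of every other gene of the group were fewer. All reads of NRD1, per 100000 S. pombe reads, were 45.6, 51.6 and 48.2 in the 3 control libraries with DMSO and 156, 152 and 163 with IAA. With the ET domain they were 42.1, 34.3 and 40.1 with DMSO and 107, 85.0 and 130 with IAA. Of the 3 ET libraries with IAA, library C was the highest for 8 of the 9 genes, all but AIR2. The 4 groups of NRD1 did not overlap, and their order from low to high was ET with DMSO, control with DMSO, ET with IAA and control with IAA. In the control strain the rise was 3.24-fold (log2 1.69, SE 0.18, edgeR quasi-likelihood test, adjusted p = 1.32e-19), the highest of the 3677 intervals with at least 1 T>C read in each library. For the ET strain it was 2.77-fold (log2 1.47, SE 0.18, no test), also rank 1 of 3677. With no such minimum NRD1 ranked 39 of 6396 intervals in the control strain and 25 in the ET strain. Rises past the adjusted threshold of 0.05 were rare on this scale, at 2.2% of intervals in the control strain and 1.01% in the ET strain. Falls were common, at 74.2% and 75.8% of intervals.

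**Figure D1:**
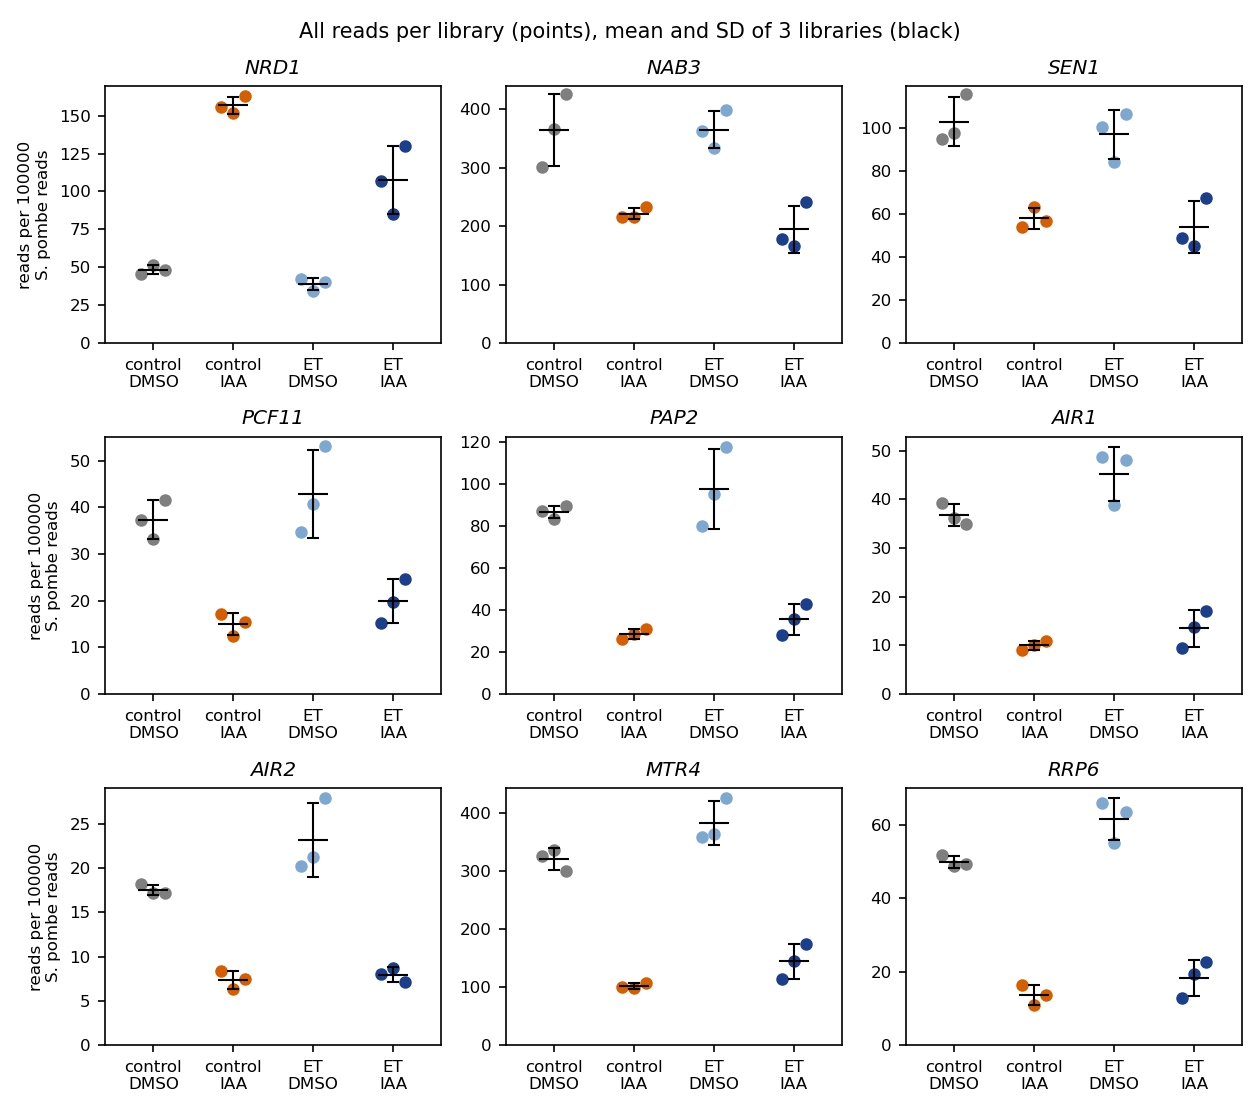
All reads of each gene per 100000 S. pombe reads (linear axis from 0) in the 4 groups, with a point for each library and the mean and SD of 3 libraries in black. NRD1 moved up with IAA, from 48.4 to 157 in the control strain and from 38.8 to 107 in the ET strain, whereas the IAA libraries of the other 8 genes lay below the DMSO libraries. Of all tested intervals, 74.2% in the control strain and 75.8% in the ET strain fell past the adjusted threshold on this scale.

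New NRD1 RNA rose as well. T>C reads of NRD1 numbered 14, 20 and 16 in the control libraries with DMSO and 28, 25 and 43 with IAA, although the IAA libraries held fewer T>C reads in all. Those of the ET strain numbered 10, 12 and 11 with DMSO and 40, 40 and 32 with IAA. Even before scaling, the raw counts with IAA lay above those with DMSO in each strain. After division by median-of-ratios size factors of all S. cerevisiae reads, NRD1 T>C reads rose 5.20-fold in the control strain (log2 2.38, SE 0.31, edgeR adjusted p = 1.13e-10), rank 10 of 3677. They were 6.87-fold higher in the ET strain (log2 2.78, SE 0.32, no test), rank 1 of 3677 and the value that chose the group. With no minimum of T>C reads the ranks were 93 and 27 of 6214.

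The size of the rise depended on the library scale, but its direction did not. Scaled by S. pombe reads, the log2 change of NRD1 T>C reads was 1.05 (SE 0.37, edgeR adjusted p = 0.00686) in the control strain and 1.61 (no test) in the ET strain, where 0.381% and 0.218% of all intervals rose. Scaled by the sum of S. cerevisiae reads it was 1.23 and 1.86. With TMM factors from the T>C reads it was 2.75 and 3.15. The median over all intervals moved likewise, from -1.78 in the control strain and -1.64 in the ET strain on the S. pombe scale to -0.09 and -0.11 with TMM factors.

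**Figure D2:**
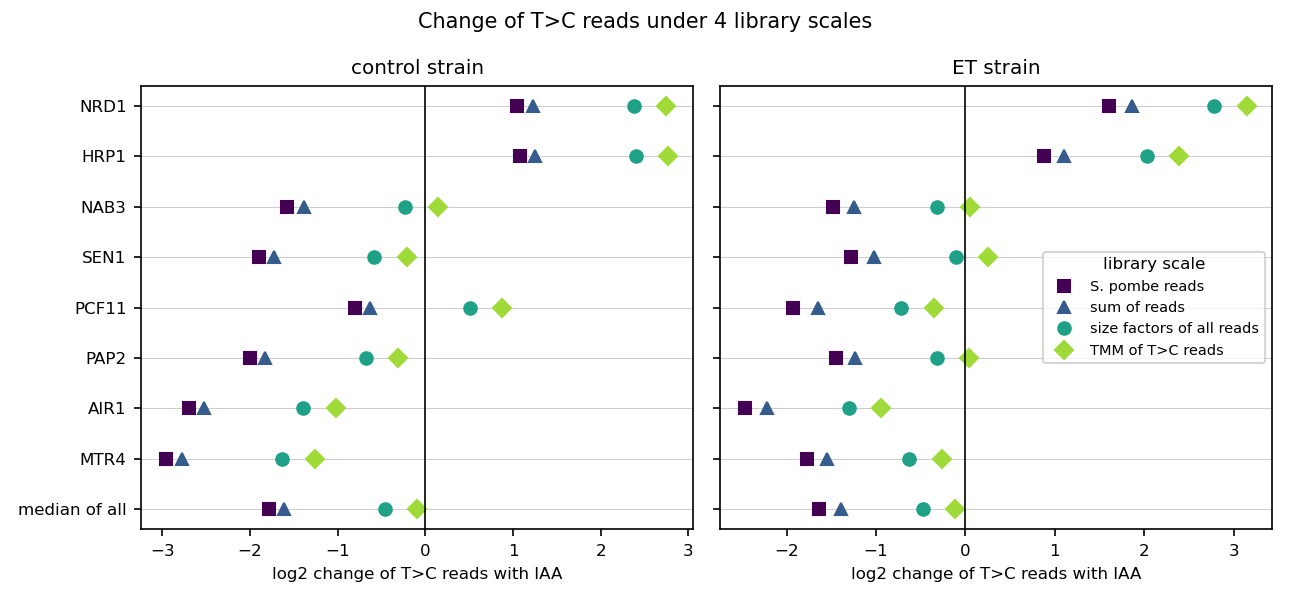
Log2 change of T>C reads with IAA (horizontal axis) under 4 library scales for the 7 tested genes of the group, for HRP1 and for the median of all 3677 intervals, in the control strain (left) and the ET strain (right). NRD1 and HRP1 stay right of 0 under each scale, while NAB3, PCF11, SEN1 or PAP2 cross 0 in at least 1 strain.

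The labelled share of NRD1, which needs no library scale, was 5.61% ± 0.761 (SD, n = 3) with DMSO and 3.60% ± 0.730 with IAA in the control strain. The change was log2 -0.64 (SE 0.31, edgeR adjusted p = 0.0873), close to the median of all intervals, -0.66. Libraries of the ET strain gave 4.86% ± 0.857 with DMSO and 5.49% ± 1.45 with IAA (log2 0.17, SE 0.33, no test), rank 118 of 3677, where the median was -0.59. These shares rest on 10 to 43 T>C reads per library.

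Genes beside NRD1 on chromosome XIV went the other way. MRPL17, a mitochondrial ribosomal protein gene downstream of NRD1 on the same strand, had 37.4 ± 1.23 reads per 100000 S. pombe reads (SD, n = 3) with DMSO and 7.82 ± 2.14 with IAA in the control strain, and 44.7 ± 1.78 and 12.2 ± 0.755 in the ET strain. RAD50, a DNA repair gene on the opposite strand, had 30.4 ± 5.12 and 5.47 ± 0.794 in the control strain and 36.4 ± 7.09 and 10.1 ± 2.98 in the ET strain. In both genes the IAA and DMSO libraries did not overlap. The NRD1 interval overlapped no other interval on either strand.

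NAB3, the RNA-binding partner of Nrd1, lost reads on the S. pombe scale and labelled share, and its T>C reads after size factors did not pass the test. Its reads per 100000 S. pombe reads were 302, 366 and 425 in the control strain with DMSO and 216, 215 and 233 with IAA, and 362, 335 and 399 against 178, 167 and 241 in the ET strain. Groups with and without IAA did not overlap in either strain. The fall was 1.65-fold in the control strain (log2 -0.72, SE 0.16, edgeR adjusted p = 2.12e-05) and 1.87-fold in the ET strain (log2 -0.90, SE 0.17, edgeR adjusted p = 8.70e-08), less than the median falls of all intervals, 2.19-fold and 2.05-fold. With size factors of S. cerevisiae reads, which centre the typical gene near 0, the sign of NAB3 turned, to 0.61 in the control strain and 0.26 in the ET strain.

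T>C reads of NAB3 numbered 147, 209 and 182 with DMSO and 70, 39 and 60 with IAA in the control strain, and 231, 221 and 218 against 80, 73 and 114 in the ET strain. After size factors the groups overlapped, and the log2 changes were -0.24 (SE 0.18, edgeR adjusted p = 0.285) and -0.32 (SE 0.17, edgeR adjusted p = 0.109). Its labelled share, however, fell in both strains. It was 8.08% ± 0.906 (SD, n = 3) with DMSO and 4.45% ± 0.551 with IAA in the control strain (log2 -0.85, SE 0.17, edgeR adjusted p = 5.16e-06), and 10.4% ± 1.18 and 6.95% ± 0.719 in the ET strain (log2 -0.58, SE 0.15, edgeR adjusted p = 0.00125).

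SEN1, the helicase of the complex, had 95.0, 97.8 and 116 reads per 100000 S. pombe reads with DMSO and 53.9, 63.4 and 56.7 with IAA in the control strain. ET libraries had 101, 84.4 and 106 with DMSO and 48.7, 45.3 and 67.6 with IAA. All IAA libraries lay below all DMSO libraries, by 1.78-fold in the control strain (log2 -0.83, SE 0.18, edgeR adjusted p = 8.63e-06) and 1.80-fold in the ET strain (log2 -0.85, SE 0.18, edgeR adjusted p = 5.04e-06); with size factors the signs turned, to 0.50 and 0.31. Its T>C reads were few, 7 to 38 per library, and the log2 changes of -0.59 (SE 0.41) and -0.11 (SE 0.36) did not pass the test.

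The labelled share of SEN1 was 4.56% ± 0.851 (SD, n = 3) with DMSO and 2.18% ± 0.266 with IAA in the control strain (log2 -1.07, SE 0.38, edgeR adjusted p = 0.0179). That call was lost without DMSO library B (edgeR adjusted p = 0.0548) or C (adjusted p = 0.0538), and without IAA library A (adjusted p = 0.0648) or C (adjusted p = 0.0613). The ET strain had shares of 4.69% ± 1.46 and 3.60% ± 1.38, and the groups overlapped. The SEN1 interval shares 288 bases with ATG23 on the opposite strand, and whether counting used the strand is not given in the sources used here.

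PCF11 links the Nrd1 pathway to cleavage and polyadenylation. Its reads per 100000 S. pombe reads were 37.4, 33.2 and 41.5 with DMSO and 17.1, 12.4 and 15.4 with IAA in the control strain, and 34.6, 40.8 and 53.0 against 15.3, 19.8 and 24.7 in the ET strain. They fell 2.47-fold (log2 -1.31, SE 0.21, edgeR adjusted p = 2.09e-09) and 2.15-fold (log2 -1.10, SE 0.21, edgeR adjusted p = 1.83e-07), close to the median of all intervals. With size factors of S. cerevisiae reads these changes were 0.03 and 0.07. T>C reads numbered 18, 9 and 13 with DMSO and 5, 5 and 11 with IAA in the control strain, and 18, 26 and 37 against 9, 7 and 8 in the ET strain. Neither change passed the test, at log2 0.51 (SE 0.46, edgeR adjusted p = 0.370; -0.80 on the S. pombe scale) and -0.72 (SE 0.40, edgeR adjusted p = 0.135). Apart from the S. pombe value, these changes were taken after size factors. On the S. pombe scale T>C reads of PCF11 fell past the threshold in the ET strain but not in the control strain. The PCF11 interval shares 222 bases with SIR4 on the opposite strand.

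Reads of the TRAMP genes MTR4, PAP2 and AIR1 fell further than the median interval in both strains, and those of AIR2, in another fit, only in the ET strain. MTR4, the helicase, had 325, 336 and 300.02 reads per 100000 S. pombe reads with DMSO and 99.1, 98.9 and 107 with IAA in the control strain. The ET strain had 358, 363 and 426 with DMSO and 114, 145 and 174 with IAA. The groups were far apart, with falls of 3.15-fold (log2 -1.66, SE 0.17, edgeR adjusted p = 2.81e-21) and 2.65-fold (log2 -1.41, SE 0.17, edgeR adjusted p = 4.82e-16). The MTR4 interval shares 21 bases with CHM7 on the same strand.

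New MTR4 RNA fell in both strains. Its T>C reads numbered 114, 134 and 76 with DMSO and 18, 11 and 9 with IAA in the control strain, a fall of 3.10-fold after size factors (log2 -1.63, SE 0.27, edgeR adjusted p = 2.83e-07). In the ET strain they numbered 121, 160 and 120 with DMSO and 33, 38 and 57 with IAA, a fall of 1.54-fold (log2 -0.63, SE 0.21, edgeR adjusted p = 0.0112). The groups did not overlap in either strain after size factors. The call in the ET strain was lost without IAA library A (log2 -0.57, edgeR adjusted p = 0.0513) or B (log2 -0.54, adjusted p = 0.0601) and with TMM factors (log2 -0.27, adjusted p = 0.308). The labelled share of MTR4 was 5.42% ± 0.935 (SD, n = 3) with DMSO and 2.24% ± 0.778 with IAA in the control strain (log2 -1.30, SE 0.26, edgeR adjusted p = 1.03e-05), and 5.90% ± 0.198 and 4.51% ± 0.793 in the ET strain (log2 -0.38, SE 0.20, edgeR adjusted p = 0.110).

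PAP2, the poly(A) polymerase, had 87.1, 83.6 and 89.7 reads per 100000 S. pombe reads with DMSO and 26.2, 28.5 and 30.8 with IAA in the control strain. The ET strain had 80.1, 95.6 and 118 with DMSO and 28.2, 35.6 and 42.9 with IAA. Reads fell 3.04-fold (log2 -1.60, SE 0.19, edgeR adjusted p = 2.80e-16) and 2.75-fold (log2 -1.46, SE 0.19, edgeR adjusted p = 4.55e-14), with no overlap between groups. Its T>C reads, 34 to 48 per library with DMSO and 6 to 28 with IAA, changed by log2 -0.68 (SE 0.36, edgeR adjusted p = 0.113) and -0.32 (SE 0.31, edgeR adjusted p = 0.404), and neither passed the test. The spread was widest in the ET strain with IAA, where T>C reads numbered 6, 16 and 28. The PAP2 interval shares 413 bases with PTH4 on the opposite strand.

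AIR1 and AIR2 encode alternative RNA-binding subunits of TRAMP. AIR1 had 39.2, 36.1 and 34.9 reads per 100000 S. pombe reads with DMSO and 8.96, 10.1 and 10.9 with IAA in the control strain, and 48.7, 38.7 and 48.0 against 9.54, 13.7 and 17.1 in the ET strain. These falls of 3.68-fold (log2 -1.88, SE 0.23, edgeR adjusted p = 3.12e-16) and 3.36-fold (log2 -1.75, SE 0.22, edgeR adjusted p = 3.59e-15) were the deepest of the tested genes in the group. T>C reads of AIR1 fell too, from 26, 22 and 17 to 4, 1 and 4 in the control strain (log2 -1.39, SE 0.51, edgeR adjusted p = 0.0221) and from 30, 32 and 29 to 7, 5 and 6 in the ET strain (log2 -1.30, SE 0.41, edgeR adjusted p = 0.00794). The call in the control strain was lost without DMSO library A (log2 -1.27, edgeR adjusted p = 0.059) or IAA library B (log2 -1.11, adjusted p = 0.102), and with TMM factors both were lost. The AIR1 interval shares 316 bases with YNCI0005W on the opposite strand.

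AIR2 and RRP6 each had 0 T>C reads in 1 library, so they were tested only in the fits with no minimum of T>C reads. AIR2 had 18.2, 17.2 and 17.2 reads per 100000 S. pombe reads with DMSO and 8.33, 6.29 and 7.47 with IAA in the control strain, and 20.3, 21.3 and 28.0 against 8.07, 8.71 and 7.07 in the ET strain. Its reads fell 2.36-fold (log2 -1.24, SE 0.26, edgeR adjusted p = 2.55e-06) and 2.89-fold (log2 -1.53, SE 0.25, edgeR adjusted p = 1.87e-09). The medians of all intervals in these fits were -1.36 and -1.21, so AIR2 fell less than the median in the control strain and further in the ET strain. With 0 to 25 T>C reads per library, its new RNA changed by -0.51 (SE 0.55) and -0.54 (SE 0.48) on the log2 scale, and neither passed the test. The AIR2 interval shares 240 bases with GID12 on the opposite strand.

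RRP6, the exonuclease of the nuclear exosome, had 51.9, 48.8 and 49.3 reads per 100000 S. pombe reads with DMSO and 16.5, 10.8 and 13.6 with IAA in the control strain. The ET strain had 65.9, 55.1 and 63.7 with DMSO and 12.9, 19.3 and 22.7 with IAA. The falls were 3.63-fold (log2 -1.86, SE 0.21, edgeR adjusted p = 9.29e-18) and 3.36-fold (log2 -1.75, SE 0.20, edgeR adjusted p = 1.43e-16). In these fits 72.3% and 73.4% of all intervals fell in all reads, and 25.5% and 23.8% in T>C reads. T>C reads went from 24, 23 and 12 to 0, 3 and 5 in the control strain (log2 -1.40, SE 0.57, edgeR adjusted p = 0.0443) and from 28, 28 and 23 to 5, 4 and 6 in the ET strain (log2 -1.36, SE 0.47, edgeR adjusted p = 0.0176). The library with 0 T>C reads held 105 RRP6 reads, which allows a labelled share of up to 3.45% (exact Clopper-Pearson 95% interval, counting error only).

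**Figure D3:**
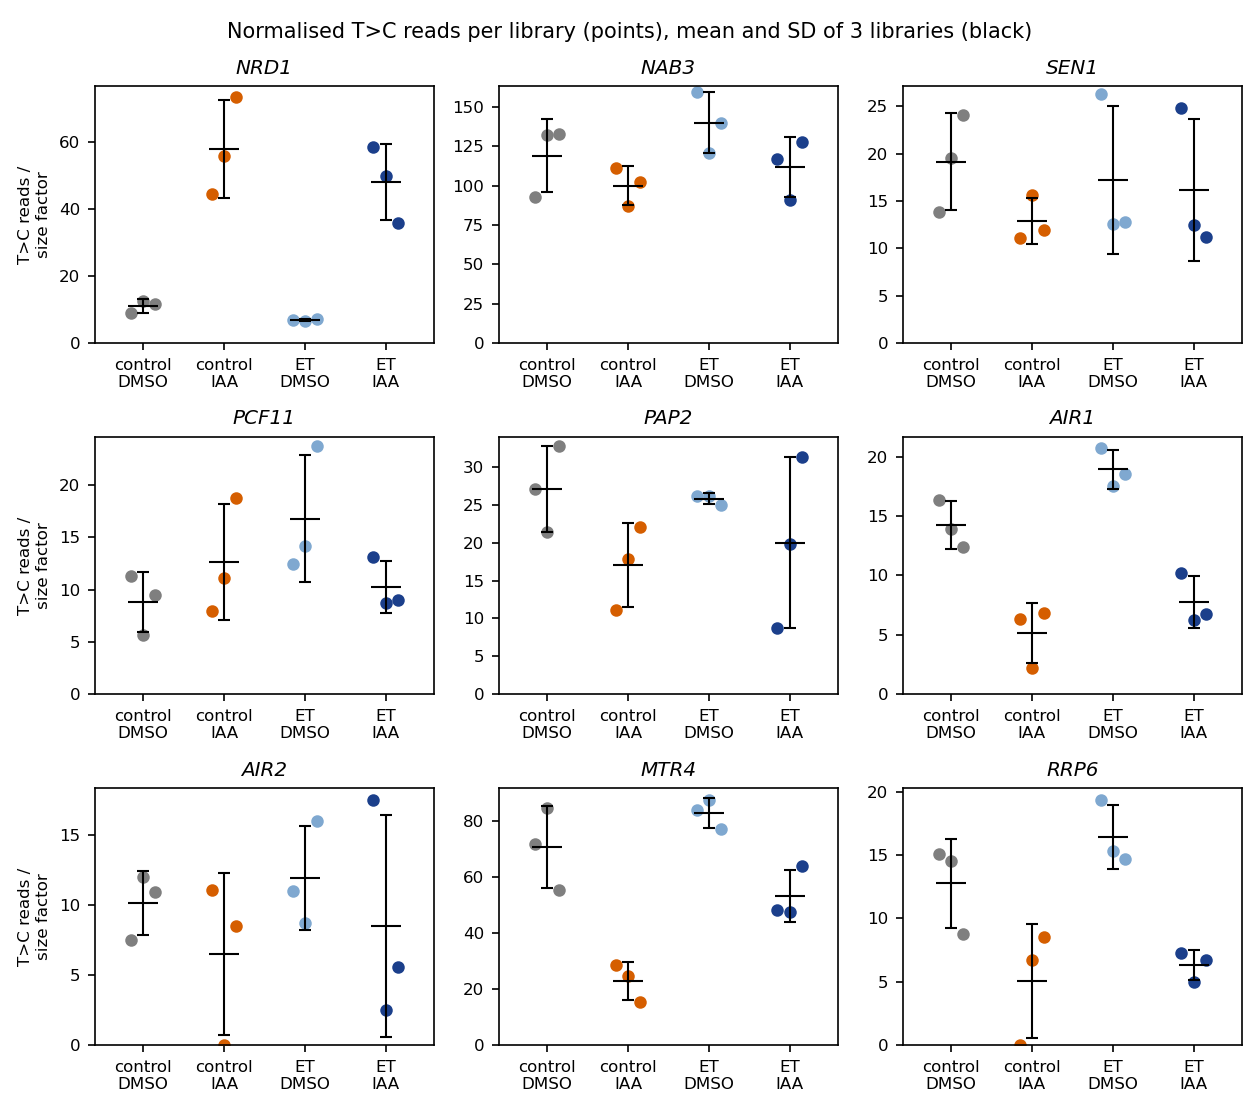
T>C reads of each gene divided by the library's size factor (linear axis from 0) in the 4 groups, with a point for each library and the mean and SD of 3 libraries in black. NRD1 is the gene whose IAA libraries all lie above its DMSO libraries in both strains, and MTR4, AIR1 and RRP6 are those whose IAA libraries all lie below.

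Counted over the 6 tested genes besides NRD1, all reads fell in 6 of 6 in both strains on the S. pombe scale, where 74.2% of all intervals fell in the control strain and 75.8% in the ET strain. With so many intervals lower, the count says little of the group. AIR1, MTR4, PAP2 and, by less, PCF11 lay below the medians of -1.13 and -1.03 in both strains, NAB3 and SEN1 above them. T>C reads fell in 2 of 6 in both strains, MTR4 and AIR1, against 28.7% of all intervals in the control strain and 30.2% in the ET strain. None of the 6 rose, where 14.3% of intervals rose in the control strain and 12.1% in the ET strain. On the S. pombe scale T>C reads fell in 5 of 6 in the control strain, all but PCF11, and in 6 of 6 in the ET strain, near the shares of all intervals that fell on that scale, 81.7% and 83.8%.

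The labelled share fell in 3 of 6 in the control strain (NAB3, SEN1 and MTR4), where 38.5% of intervals fell and 0.136% rose. It fell in 1 of 6 in the ET strain (NAB3), where 38.3% of intervals fell and 0.109% rose. The other values were -0.84 (SE 0.52) for AIR1, -0.40 (SE 0.34) for PAP2 and 0.48 (SE 0.45) for PCF11 in the control strain. In the ET strain they were -0.72 (SE 0.41) for AIR1, -0.03 (SE 0.30) for PAP2, -0.78 (SE 0.38) for PCF11 and -0.41 (SE 0.34) for SEN1.

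**Figure D4:**
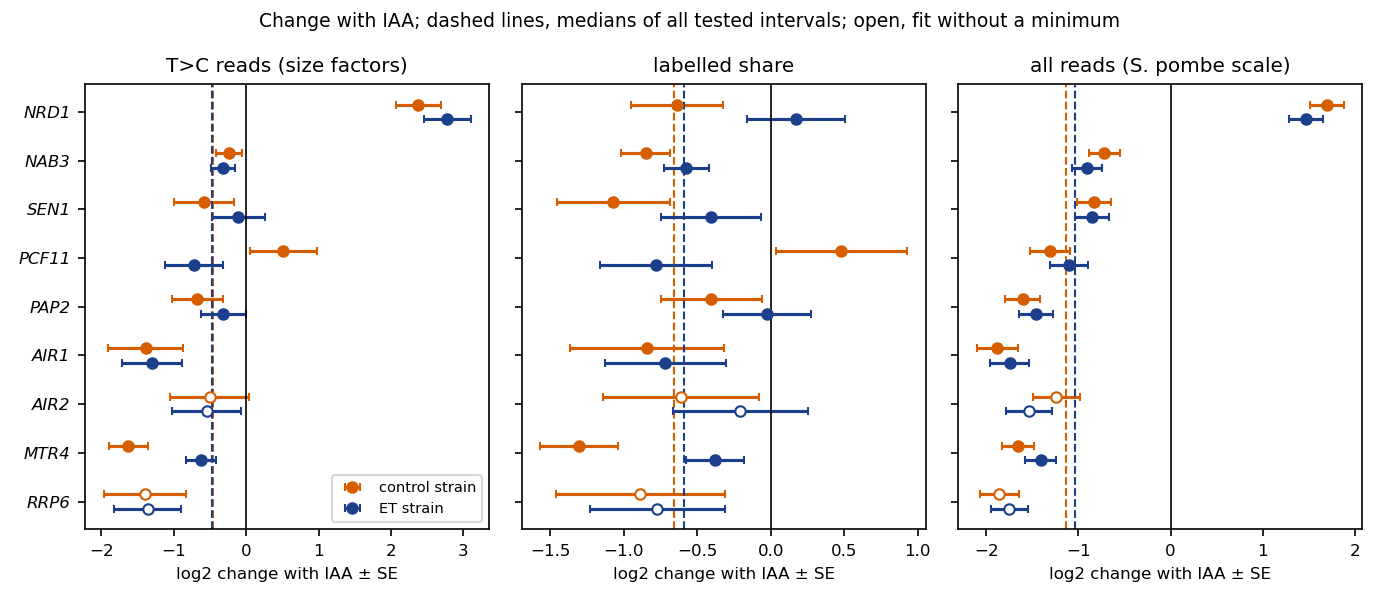
Log2 change with IAA ± SE (horizontal axes) of the 9 genes in the control strain (orange) and the ET strain (blue) for T>C reads, labelled share and all reads, with dashed lines at the medians of all tested intervals and open points for AIR2 and RRP6, which come from the fits without a minimum. NRD1 stands apart in T>C reads and all reads, at 2.38 and 2.78 and at 1.69 and 1.47, while its labelled share changed by -0.64 in the control strain, among the other genes, and by 0.17 in the ET strain, the highest of the 9 genes.

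The ET strain was set against the control strain to ask what the extra ET domain changed. With DMSO, 0 of the 6 genes differed in T>C reads (0.163% of all intervals did, in either direction), in labelled share (0.435%) or in all reads (0.354%). In T>C reads the largest difference was that of PCF11, 1.89-fold higher in the ET strain (log2 0.92, SE 0.36, edgeR adjusted p = 0.310). NRD1 reads were lower in the ET strain with DMSO, 38.8 ± 4.03 against 48.4 ± 3.00 (SD, n = 3), with no overlap and no test. On the same S. pombe scale, reads of MTR4, AIR2 and RRP6 were 1.19-fold, 1.32-fold and 1.23-fold higher, also with no overlap. The median interval was 1.11-fold higher.

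After depletion, MTR4 was higher in the ET strain by each measure. The medians of all intervals were higher there too, at log2 0.17 in T>C reads, 0.28 in labelled share and 0.26 in all reads. T>C reads of MTR4 were 2.34-fold higher (log2 1.23, SE 0.29, edgeR adjusted p = 0.00823), the only call among the 6 genes, where 0.707% of intervals were higher and 0.571% lower. Its labelled share was 2.06-fold higher (log2 1.04, SE 0.29, edgeR adjusted p = 0.0138), and that of NAB3 was 1.56-fold higher (log2 0.64, SE 0.18, edgeR adjusted p = 0.0151), where 4.32% of intervals were higher and 0% lower (0 of 3677 by edgeR or DESeq2, while 649 had an unadjusted p under 0.05 in either direction). All reads of MTR4 were 1.41-fold higher on the S. pombe scale (log2 0.50, SE 0.17, edgeR adjusted p = 0.0296), where 14.5% of intervals were higher and 1.99% lower. In each of these measures the 3 ET libraries lay above the 3 control libraries.

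Single libraries decided several of these calls. Without control IAA library C the MTR4 difference was 0.99 in T>C reads (edgeR adjusted p = 0.148) and 0.75 in labelled share (adjusted p = 0.213), and without ET IAA library C it was 1.06 (adjusted p = 0.104) and 0.88 (adjusted p = 0.152). For NAB3 the share difference was 0.59 without control IAA library B (edgeR adjusted p = 0.0565), 0.59 without C (adjusted p = 0.108) and 0.55 without ET IAA library C (adjusted p = 0.156). The difference in all reads of MTR4 was lost without any 1 of control IAA libraries A, B and C or ET IAA libraries B and C, with edgeR adjusted p from 0.0905 to 0.185, and with size factors of S. cerevisiae reads it was 0.19 (adjusted p = 0.0994).

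The response to IAA itself was not shown to differ between strains for any of the 6 genes. The fit of the difference made 0 calls among them in T>C reads (0.109% of all intervals), labelled share (0% of intervals, 0 of 3677) and all reads (0%, 0 of 3677); DESeq2 also made none in the 3 measures, and the unadjusted p was under 0.05 for 220, 205 and 100 intervals. MTR4 came with a difference of 1.00 in T>C reads (SE 0.35, edgeR adjusted p = 0.593) and 0.93 in labelled share (SE 0.34, edgeR adjusted p = 0.700). PCF11 came with -1.23 (SE 0.62, edgeR adjusted p = 0.787) in T>C reads. For NRD1 the difference was 0.40 (SE 0.46) in T>C reads and -0.23 (SE 0.26) in all reads, with no test.

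Among known targets of early termination by the complex, HRP1 rose in both strains. HRP1 (YOL123W), which encodes an RNA-binding cleavage factor, had 24, 18 and 15 T>C reads with DMSO and 40, 36 and 34 with IAA in the control strain, and 25, 38 and 20 against 58, 48 and 60 in the ET strain. IAA libraries lay above DMSO libraries in both strains. After size factors T>C reads rose 5.27-fold (log2 2.40, SE 0.29, edgeR adjusted p = 3.98e-12, rank 9 of 3677) and 4.09-fold (log2 2.03, SE 0.26, edgeR adjusted p = 8.59e-11, rank 11), and they rose on the S. pombe scale as well (log2 1.08, edgeR adjusted p = 0.00335, and 0.88, adjusted p = 0.00985). All reads of HRP1 per 100000 S. pombe reads rose from 222 ± 21.8 (SD, n = 3) to 528 ± 26.0 in the control strain and from 241 ± 31.5 to 541 ± 60.8 in the ET strain, rank 3 of 3677 in both. Its labelled share changed by -0.16 (SE 0.29) and -0.29 (SE 0.25), neither past the test.

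The list of such targets besides NRD1 held 8 genes, chosen with earlier results of these data known, and 6 were tested. T>C reads rose in 2 of 6 in the control strain (HRP1 and IMD2, an IMP dehydrogenase gene of GTP synthesis) and in 4 of 6 in the ET strain (HRP1, IMD2, its paralogue IMD3 and the pyrimidine synthesis gene URA2), where 14.3% and 12.1% of all intervals rose. In the ET strain the call of IMD2 was lost without IAA library B (log2 0.48, edgeR adjusted p = 0.154), and that of URA2 without any 1 of DMSO libraries B and C, IAA libraries B and C or control DMSO libraries A and C (edgeR adjusted p from 0.0503 to 0.287). Reads of IMD2 and IMD3 could be split between the paralogues. On the S. pombe scale HRP1 alone of the 6 rose, and 3 of 6 fell in the control strain (IMD3, URA2 and TIS11, an mRNA-binding zinc finger gene) and 1 of 6 in the ET strain (TIS11). The log2 changes of IMD2 were -0.45 and -0.36, and the median of the 6 turned from 0.69 and 0.63 to -0.63 and -0.51, still above the medians of all intervals. All reads of IMD2 were 411 ± 22.1 and 430 ± 23.9 per 100000 S. pombe reads in the control strain (SD, n = 3; log2 0.06, SE 0.16), while the typical interval fell 2.19-fold.

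Transcripts of snoRNA genes are a main class ended by Nrd1-Nab3-Sen1. Intervals of snoRNAs and spliceosomal snRNAs were taken as the 81 intervals whose symbols start with SNR, and 59 were tested. The symbol does not tell which of them the complex ends. The libraries were made from the 3′ ends of mRNA, and which forms of RNA gave the reads in these intervals was not tested. T>C reads after size factors rose in 28 and fell in 1 in the control strain, and rose in 26 and fell in 0 in the ET strain (edgeR), with medians of 1.08 and 0.80 against -0.46 and -0.48 for all intervals. Of all intervals 14.3% rose and 28.7% fell in the control strain, and 12.1% rose and 30.2% fell in the ET strain. The labelled share of the 59 fell in 10 and rose in 1 in the control strain, and fell in 18 and rose in 0 in the ET strain, with medians of -0.45 and -0.59 against -0.66 and -0.59. Of all intervals 38.5% and 38.3% fell in labelled share, and 0.136% and 0.109% rose. On the S. pombe scale the medians of T>C reads were -0.25 and -0.37, with 10 and 13 of 59 lower and 2 and 0 higher, against medians of -1.78 and -1.64. On that scale 81.7% and 83.8% of all intervals were lower and 0.381% and 0.218% higher. All reads had medians of 0.09 and 0.10 where the medians of all intervals were -1.13 and -1.03. SNR42, a box H/ACA snoRNA, rose most in the control strain (log2 2.55, SE 0.65, edgeR adjusted p = 0.000812), SNR7-L, the long form of the U5 snRNA, in the ET strain (log2 2.27, SE 0.59, edgeR adjusted p = 0.00130), and SNR72, a box C/D snoRNA, fell in the control strain (log2 -0.71, SE 0.28, edgeR adjusted p = 0.0346). SNR7-L was not called without ET IAA library A (log2 1.46, edgeR adjusted p = 0.103), nor SNR72 without control DMSO library A or C or control IAA library B or C (edgeR adjusted p from 0.0605 to 0.196). On the S. pombe scale the change of SNR42 in the control strain was 1.26 and that of SNR7-L in the ET strain 1.11. Of the 81 intervals 40 shared bases with another interval on the same strand, and among the 28 tested that shared none, 15 and 13 rose in T>C reads.

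T>C reads of the core exosome and its protein partners fell in 5 of 13 in the control strain and 6 of 13 in the ET strain and rose in none, where 28.7% and 30.2% of all intervals fell. Their medians were -0.97 and -0.71 against -0.46 and -0.48 for all intervals. On the S. pombe scale 13 of 13 fell in both strains, where 81.7% and 83.8% of all intervals did, and with TMM factors 2 and 3 fell. MPP6, an exosome cofactor, fell most in the control strain (log2 -1.85, SE 0.39, edgeR adjusted p = 5.92e-05) and RRP40, a cap subunit of the exosome, in the ET strain (log2 -1.37, SE 0.44, edgeR adjusted p = 0.00816), a call that was lost without ET IAA library C (log2 -0.90, edgeR adjusted p = 0.116). Of 14 tested cleavage and polyadenylation factors of 19, 5 and 6 fell, against the same 28.7% and 30.2% of all intervals, led by YTH1 in the control strain (log2 -2.51, SE 0.59, edgeR adjusted p = 0.000333) and SYC1 in the ET strain (log2 -2.14, SE 0.45, edgeR adjusted p = 8.22e-05). HRP1 was the 1 factor that rose, and it was counted in both lists. On the S. pombe scale 13 of the 14 fell in both strains, and with TMM factors 3 and 2 fell. Of the 3 torpedo termination genes 2 fell in each strain, again beside 28.7% and 30.2% of all intervals, the larger fall being that of RAI1, partner of the exonuclease Rat1 (log2 -1.76, SE 0.35, edgeR adjusted p = 2.29e-05, and -1.19, SE 0.26, adjusted p = 0.000151). All 3 fell on the S. pombe scale and 1 in each strain with TMM factors.

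The genes with T>C profiles most like that of NRD1 over the 12 libraries were CDC19 (Pearson r = 0.978), CPR1 (0.972), CPA1 (0.967), PDC1 (0.963) and FBA1 (0.962), of 1993 genes whose T>C reads averaged 20 or more per library. CDC19, PDC1 and FBA1 encode enzymes of glycolysis and fermentation, CPR1 cyclophilin A and CPA1 a subunit of carbamoyl phosphate synthetase. The points share libraries and size factors, and the values fall into groups with low and high levels, so r describes the split by IAA. Mean normalised T>C reads of CDC19 were 435.5 and 1030 without and with IAA in the control strain and 385 and 822 in the ET strain. In the control strain those of CPR1 were 227 and 391, and those of CPA1 53.1 and 92.7. After these size factors, each of these genes rose less than NRD1, whose means differed 5.24-fold in the control strain and 7.02-fold in the ET strain. The value of r does not measure the size of a rise. Profiles were compared after these size factors only, and likeness on the S. pombe scale was not tested. Changes of these 5 genes on that scale are not given here. The median log2 change of all intervals in the control strain was -0.46 after size factors and -1.78 on the S. pombe scale.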

How the data were processed

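SLAM-seq libraries from the 3′ ends of RNA of 2 strains, each with DMSO or IAA and 3 biological replicates, were analysed. The authors trimmed reads with fastp (0.23.2) and bbduk and ran SLAM-DUNK (0.4.3, per the file headers) against genomes of S. cerevisiae (R64) and S. pombe (ASM294v2). The deposited tables hold a count of all reads and a count of T>C reads (at least 2 conversions) per interval and library, neither normalized nor pooled. Of 6465 S. cerevisiae intervals, 6462 had a locus in RefSeq's R64 annotation and 6460 reached 250 bp past its 3′ end, so neighbours can share reads. Multimapping reads were at most 0.757% of any gene of the group. No libraries held identical T>C counts.

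Counts were fitted with edgeR (4.0.16, glmQLFit and glmQLFTest, R 4.3.3) with 4 group means over 12 libraries, over the 3677 intervals where no library had fewer than 1 T>C read. The offsets for T>C reads came from median-of-ratios size factors of all S. cerevisiae reads, those for the labelled share (T>C reads as a percent of reads) from the interval's own reads, and those for all reads from S. pombe reads. Adjusted p-values are two-sided, by Benjamini-Hochberg over all intervals tested, with a threshold of 0.05. The SE of an edgeR change is its absolute log2 value divided by the square root of the F statistic of the fit. For NRD1 in contrasts with libraries of the ET strain, the SE only describes the fit and was not read as a test. Alternatives were other scales, DESeq2 (1.42.0), no minimum, conversions per covered T, a replicate block and leaving out each library. The fits were tested on simulated counts. Python 3.11.15 with pandas 2.3.3, numpy 2.4.6, scipy 1.17.1 and matplotlib 3.10.9 was used for the rest.

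The genes and pathway lists were chosen with earlier results of these data known. Named besides the 9 genes were, of each list, the called genes with the largest rise and fall of T>C reads in each strain, and the 5 genes most like NRD1 (log2 of normalised T>C reads, pseudocount 0.5). IMD2, IMD3, URA2, TIS11, ADE12 and the neighbours of NRD1 were named after their values were seen.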

Additional observations from a re-analysis of the deposited data

How the results depend on the processing

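NRD1 kept its rise in T>C reads and all reads in both strains under every alternative run. The scale of the libraries was the choice that moved most other results, and with 0 to 48 T>C reads per library for SEN1, PCF11, PAP2, AIR1, AIR2 and RRP6 the depth limits what can be told of single genes. The values of AIR2 and RRP6 rest on the fits without a minimum. Where a direction turned, the cause was not tested. Under settings that used every library, 476 values were kept, 23 turned direction, 16 gained and 5 lost a call, and 5 untested values moved. With 1 library left out, 1193 were kept, 44 turned, 3 gained and 20 lost a call. A tested value was kept if its direction and its side of the threshold stayed. Untested values of NRD1 were kept if their direction stayed and any move was small beside the SE. Fits that left out a library outside the contrast were counted too.

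The number of the 6 genes with lower T>C reads in the control strain was 2, against 5 scaled by the sum of S. cerevisiae reads, 5 by S. pombe reads and 1 with TMM factors. For the ET strain it was 2, against 6, 6 and 0. Genes with a higher labelled share in the ET strain with IAA went from 2 to 1 with conversions per covered T. They also went to 1 among genes with no same-strand overlap, a set that leaves out MTR4. With median-of-ratios factors for all reads, the lower genes went from 6 to 3 in both strains and the higher ones from 0 to 2 in the control strain and from 0 to 1 in the ET strain. Between strains with IAA, the lower ones then went from 0 to 2 and the higher ones from 1 to 0. For T>C reads and all reads, the calls over all 3677 intervals moved the same way, as counted below.

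Directions that turned in T>C reads were PCF11 in the control strain (-0.63 by the sum, -0.80 by S. pombe reads), NAB3 in the control strain with TMM factors (0.14), and NAB3 (0.051), SEN1 (0.26) and PAP2 (0.045) in the ET strain with TMM factors. Between strains they were PAP2 with DMSO (0.077, S. pombe reads), NRD1 with IAA (0.0058, S. pombe reads, no test) and NAB3 with IAA (-0.034, TMM). For the difference in response NAB3 turned to 0.14 by the sum and 0.094 by S. pombe reads. The labelled share of PAP2 in the ET strain was 0.084 with conversions per covered T. All reads with median-of-ratios factors changed by 0.61 for NAB3, 0.50 for SEN1 and 0.031 for PCF11 in the control strain and by 0.26, 0.31 and 0.066 in the ET strain. Between strains with DMSO, NAB3 gave -0.090 by the sum and -0.14 with median-of-ratios factors. The difference in response was 0.037 for SEN1 by the sum, and -0.015 for PAP2 and -0.044 for AIR1 with median-of-ratios factors.

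Over fits that each left out 1 library, the 6 genes with lower T>C reads numbered 1 to 2 in each strain. Between strains with IAA, 0 to 1 were higher in T>C reads, 0 to 2 in labelled share and 0 to 4 in all reads, the 4 without ET IAA library A. Directions also turned where the change was near 0. The log2 change of T>C reads in the ET strain ran from -0.52 to 0.31 for SEN1 and -0.81 to 0.0013 for PAP2. The change of T>C reads between strains with DMSO ran from -0.58 to 0.028 for SEN1 and -0.21 to 0.089 for PAP2. The change of T>C reads between strains with IAA ran from -0.59 to 0.12 for PCF11, -0.098 to 0.53 for SEN1 and -0.20 to 0.61 for PAP2. The change of T>C reads in the difference in response ran from -0.20 to 0.073 for NAB3, -0.20 to 0.31 for AIR1 and -0.13 to 0.68 for PAP2. The change of labelled share in the ET strain ran from -0.52 to 0.27 for PAP2 and -0.015 to 0.36 for NRD1. The change of labelled share between strains with DMSO ran from -0.25 to 0.19 for SEN1 and -0.18 to 0.037 for PAP2. The change of labelled share between strains with IAA ran from -0.76 to 0.0099 for PCF11 and -0.19 to 0.59 for PAP2. The change of labelled share in the difference in response ran from -0.18 to 0.38 for AIR1 and -0.12 to 0.67 for PAP2. The change of all reads between strains with DMSO ran from -0.12 to 0.13 for NAB3 and -0.15 to 0.010 for SEN1. The change of all reads between strains with IAA ran from -0.30 to 0.0057 for SEN1. The change of all reads in the difference in response ran from -0.21 to 0.089 for SEN1, -0.011 to 0.30 for PAP2 and -0.070 to 0.33 for AIR1.

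Over all 3677 intervals, T>C reads fell in 1054 and rose in 525 in the control strain, against 2931 and 35 by the sum, 3004 and 14 by S. pombe reads and 519 and 827 with TMM factors. The ET strain had 1109 lower and 444 higher, against 2927 and 29, 3081 and 8, and 420 and 772. All reads fell in 2729 and rose in 81 in the control strain, against 2659 and 330 by the sum and 1042 and 1758 with median-of-ratios factors. In the ET strain 2789 fell and 37 rose, against 2608 and 326, and 933 and 1649. Between strains with IAA, 21 were lower and 26 higher in T>C reads, against 11 and 482 by the sum, 0 and 62 by S. pombe reads and 74 and 13 with TMM factors. All reads were lower in 73 and higher in 533, against 187 and 1193 by the sum and 671 and 166 with median-of-ratios factors. With no minimum, T>C reads fell in 1587 of 6214 in the control strain, and all reads fell in 4627 and 4694 of 6396 in the 2 strains.

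With the letters A, B and C as a replicate block, the T>C change of NRD1 in the control strain was 2.37 (edgeR adjusted p = 1.18e-10), and all reads rose in 164 and 76 intervals against 81 and 37. Samples of the same letter deviated together only weakly, with correlations from -0.10 to 0.09. Between DMSO and IAA in the ET strain they were 0.072, 0.076 and 0.089, each above the highest between different letters, -0.012. In the control strain they were -0.0015, -0.0080 and -0.0030. Whether the letters mark shared cultures is not given in the sources used here, and the main fits did not take them as pairs. The block changed no call among the 7 genes it was run on, which leaves out AIR2 and RRP6.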
